A study of Homo sapiens with 12 samples.

Results

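The paralogous coactivators YAP (gene YAP1) and TAZ (gene WWTR1), the 4 TEAD transcription factors they bind (TEAD1 to TEAD4) and 3 VGLL cofactors (VGLL1, VGLL3 and VGLL4) were followed through depletion of YAP and TAZ in the human line MDA-MB-231, derived from a breast cancer that lacks hormone receptors and HER2 amplification, with mesenchymal features. A probe set, a group of short oligonucleotides that reads 1 transcript region on the array, was taken as a member when the platform annotation named 1 of these 9 genes as its gene. The 9 genes, of 19775 that the array names through single-gene probe sets, had 23 probe sets of the 54675 in the table. Of these, 18 had a mean over all arrays above 5.46 log2, the 40th percentile of all probe sets with a single gene name, and were tested. The other 5 were all 3 probe sets of VGLL1, 1 of the 4 of TEAD2 and 1 of the 2 of VGLL3, so that 8 of the 9 genes had a tested probe set. Members were taken by gene name, with earlier results of these data known.

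The groups were cells given siRNA mix 2 against YAP and TAZ (siYAP/TAZ#2), cells given mix 1 against the same genes (siYAP/TAZ#1) and cells given control siRNA (siControl), with 4 biological replicates each, lettered A to D, that were plated, transfected and harvested in parallel. Every culture was of the same line, seeded sparsely in serum-containing medium on day 1, received siRNA at a final 33 nM with a lipid reagent on day 2 and was harvested on day 4, with fresh medium on day 3. Each mix was aimed at both coactivators at once, so neither gene was lowered alone, and 1 cell line stands for breast cancer cells here. Levels are the authors' log2 values, on which a difference of 1 is a doubling of the signal. In RNA of a whole culture, fewer cells with a transcript and less transcript per cell cannot be told apart.

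YAP and TAZ carry no DNA-binding domain and reach their target genes mainly by binding TEAD factors, which recognise the sequence GGAATG and its variants. The kinases of the Hippo pathway phosphorylate YAP and TAZ and keep them out of the nucleus. VGLL proteins bind TEAD factors through a short Tondu motif, at a surface that overlaps the one used by YAP and TAZ. VGLL4, which has a pair of Tondu motifs, is known as a competitor that restrains YAP-TEAD activity, while VGLL1 and VGLL3 are known as cofactors of TEAD factors in their own right.

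Promoter windows of 250 bases before to 50 after a start site were available in RefSeq (GRCh38.p14) for 7 of the 9 genes, in 13 windows; TEAD1 and TEAD4 had none in that table. They were searched on both strands for the TEAD sequence GGAATG, which reads as CATTCC on the other strand, and for the AP-1 sequence TGANTCA, which reads the same on both strands, since AP-1 factors are often found beside TEAD factors on DNA. GGAATG was found in 2 of the 13 windows, against 14% of all 35116 windows, and TGANTCA in 0, against 7.71% of all. The matches lay in YAP1, 162 bases before the start site, and in VGLL1, 157 bases before it and on the other strand. The following windows show these matches in capitals, and beside them the window of VGLL3 and the VGLL4 window farthest upstream, for the VGLL genes whose levels changed; neither of these held a match. They are written 5′ to 3′ along each gene's own strand.
YAP1 (chr11:102110197-102110496, + strand): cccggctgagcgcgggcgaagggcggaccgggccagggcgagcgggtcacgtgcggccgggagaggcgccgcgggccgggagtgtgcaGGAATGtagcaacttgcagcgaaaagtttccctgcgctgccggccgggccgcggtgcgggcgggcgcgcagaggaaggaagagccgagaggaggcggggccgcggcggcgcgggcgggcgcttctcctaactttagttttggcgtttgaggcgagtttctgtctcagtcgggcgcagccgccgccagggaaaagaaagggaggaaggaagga
VGLL1 (chrX:136531965-136532264, + strand): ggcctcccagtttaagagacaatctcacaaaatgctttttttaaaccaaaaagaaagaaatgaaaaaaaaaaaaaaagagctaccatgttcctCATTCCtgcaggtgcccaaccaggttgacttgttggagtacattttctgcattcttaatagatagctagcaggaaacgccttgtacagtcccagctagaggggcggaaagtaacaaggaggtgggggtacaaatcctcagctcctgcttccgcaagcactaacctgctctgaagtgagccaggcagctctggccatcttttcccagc
VGLL3 (chr3:86991100-86991399, - strand): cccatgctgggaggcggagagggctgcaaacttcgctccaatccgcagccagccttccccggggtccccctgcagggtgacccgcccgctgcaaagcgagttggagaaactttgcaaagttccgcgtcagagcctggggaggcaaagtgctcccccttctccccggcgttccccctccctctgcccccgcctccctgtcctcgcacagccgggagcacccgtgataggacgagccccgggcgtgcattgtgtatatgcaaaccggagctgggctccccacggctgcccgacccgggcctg
VGLL4 (chr3:11720490-11720789, - strand): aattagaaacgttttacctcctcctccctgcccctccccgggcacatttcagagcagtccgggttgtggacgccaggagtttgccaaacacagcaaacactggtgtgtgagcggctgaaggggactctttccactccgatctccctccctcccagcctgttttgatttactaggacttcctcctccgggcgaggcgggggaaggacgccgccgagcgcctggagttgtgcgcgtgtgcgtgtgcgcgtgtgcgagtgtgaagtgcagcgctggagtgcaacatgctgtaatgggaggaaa
A match of these letters is a description of the sequence and not a binding site, and a window without one says only that the letters are absent from it.

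The arrays of a group resembled each other closely, with correlations over all probe sets between 0.994 and 0.998, and array medians lay between 5.69 and 5.78 log2. Of the line's markers, the mesenchymal gene vimentin (VIM) averaged 14.37, 14.41 and 14.29 log2 with mix 2, mix 1 and control. Other markers that are high in the line averaged lower than control under both mixes. These were CD44 (11.93, 11.96 and 12.22 in the same order), CAV1 (13.0, 12.83 and 13.14) and AXL (12.83, 12.13 and 13.24). MSN (12.91, 12.45 and 12.83) averaged lower with mix 1 only. The progesterone receptor gene PGR (3.60, 3.71 and 3.56) and E-cadherin gene CDH1 (4.17, 4.17 and 3.98) were below the filter value in all groups. The estrogen receptor gene ESR1 (6.19, 6.26 and 6.31) and the HER2 gene ERBB2 (7.95, 7.75 and 7.76), which are low in this line, were above that value, so passing it does not by itself show expression. Of 9 markers of leukocytes, endothelial cells and fibroblasts, 8 could be read by a probe set naming that gene alone, of which 3 were above the filter value. Their summed linear level was 475 to 531 with mix 2, 591 to 658 with mix 1 and 296 to 348 in control, with the endothelial marker PECAM1 at 7.88, 8.62 and 6.54 log2 in the same order. The markers PTPRC of leukocytes (4.47, 3.80 and 4.04) and CDH5 of endothelial cells (3.94, 3.92 and 3.97) were below the filter value in all groups. So were the fibroblast genes LUM (5.41, 4.26 and 3.19) and PDGFRA (4.415, 4.46 and 4.41). In contrast, CD3E of leukocytes (6.065, 6.075 and 6.17) and VWF of endothelial cells (5.60, 5.52 and 5.57) were above that value in all groups. The fibroblast gene DCN (5.53, 5.38 and 5.465) lay close to it. The part of these markers in the results was not tested. The difference between the 3′ and 5′ ACTB control probe sets, a measure of RNA integrity, overlapped between the groups (1.36 to 1.83 with mix 2, 1.61 to 2.24 with mix 1, 1.38 to 1.99 in control).

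Both mixes lowered every YAP1 and WWTR1 probe set, the mRNAs that they target, to similar levels. The brightest YAP1 probe set (224894_at) had 8.15, 7.98, 8.19 and 8.04 log2 in replicates A to D of mix 2, 8.44, 8.42, 7.67 and 8.08 in those of mix 1, and 11.26, 11.19, 11.03 and 11.16 in control. All 8 knockdown arrays lay far below the 4 controls, with mix 1 replicate C the lowest of them. The log2 difference from control was -3.07 (SE 0.14, limma adjusted p = 7.06e-11) with mix 2 and -3.01 (adjusted p = 1.1e-10) with mix 1. This left 11.9% of the control level with mix 2 and 12.4% with mix 1. Of the control level, 224895_at of YAP1 kept 13.8% with mix 2 and 15.9% with mix 1, and 213342_at kept 8.45% and 11.7%. The last averaged 5.42 log2 with mix 2, below the filter value, and 5.89 with mix 1, so its shares and its difference between the mixes are uncertain.

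The brightest WWTR1 probe set (202133_at) had 9.02, 8.83, 9.07 and 8.87 log2 with mix 2, 9.23, 9.25, 8.78 and 9.0 with mix 1, and 11.49, 11.45, 11.27 and 11.39 in control. Here too the knockdown arrays did not reach the controls, and replicate C was again the lowest of mix 1. Mix 2 differed from control by -2.45 (SE 0.10, limma adjusted p = 3.09e-11), and mix 1 did so by -2.34 (adjusted p = 6.5e-11). The remaining WWTR1 probe sets kept 24.4% and 24.7% (202132_at) and 40.2% and 33.2% (202134_s_at) of the control level with mix 2 and mix 1. Probe set 202134_s_at averaged only 6.19 log2 with mix 2 and 5.91 with mix 1, not above ESR1 in these groups. Its shares, its comparison with the brightest probe set and its difference between the mixes are therefore uncertain. The within-array difference between the dimmest and the brightest WWTR1 probe set changed by 1.14 log2 with mix 2 and by 0.75 with mix 1 (exact two-sided permutation p = 0.0286 each, the smallest that 4 against 4 arrays allow, adjusted p = 0.0572 over 20 such tests).

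Between the mixes the brightest probe sets of both genes did not differ past the threshold. The difference, mix 2 minus mix 1, was -0.06 for YAP1 (95% interval -0.36 to 0.23, limma adjusted p = 0.735) and -0.12 for WWTR1 (-0.33 to 0.10, adjusted p = 0.357). A difference passed in 3 of the 4 other probe sets: 224895_at of YAP1 was lower with mix 2 (-0.20, adjusted p = 0.0173), as was 213342_at (-0.48, adjusted p = 0.0288), and 202134_s_at of WWTR1 was higher with mix 2 (0.28, adjusted p = 0.0488). Their groups overlapped on the arrays, and 213342_at was lost without any of 4 single arrays (adjusted p up to 0.0979), 202134_s_at without any of 10 (adjusted p up to 0.165) and 224895_at without mix 1 replicate A (adjusted p = 0.0572). With only both mixes in the fit, 213342_at (adjusted p = 0.0508) and 202134_s_at (0.0849) were lost, and without the filter 202134_s_at was lost (0.076).

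**Figure D1:**
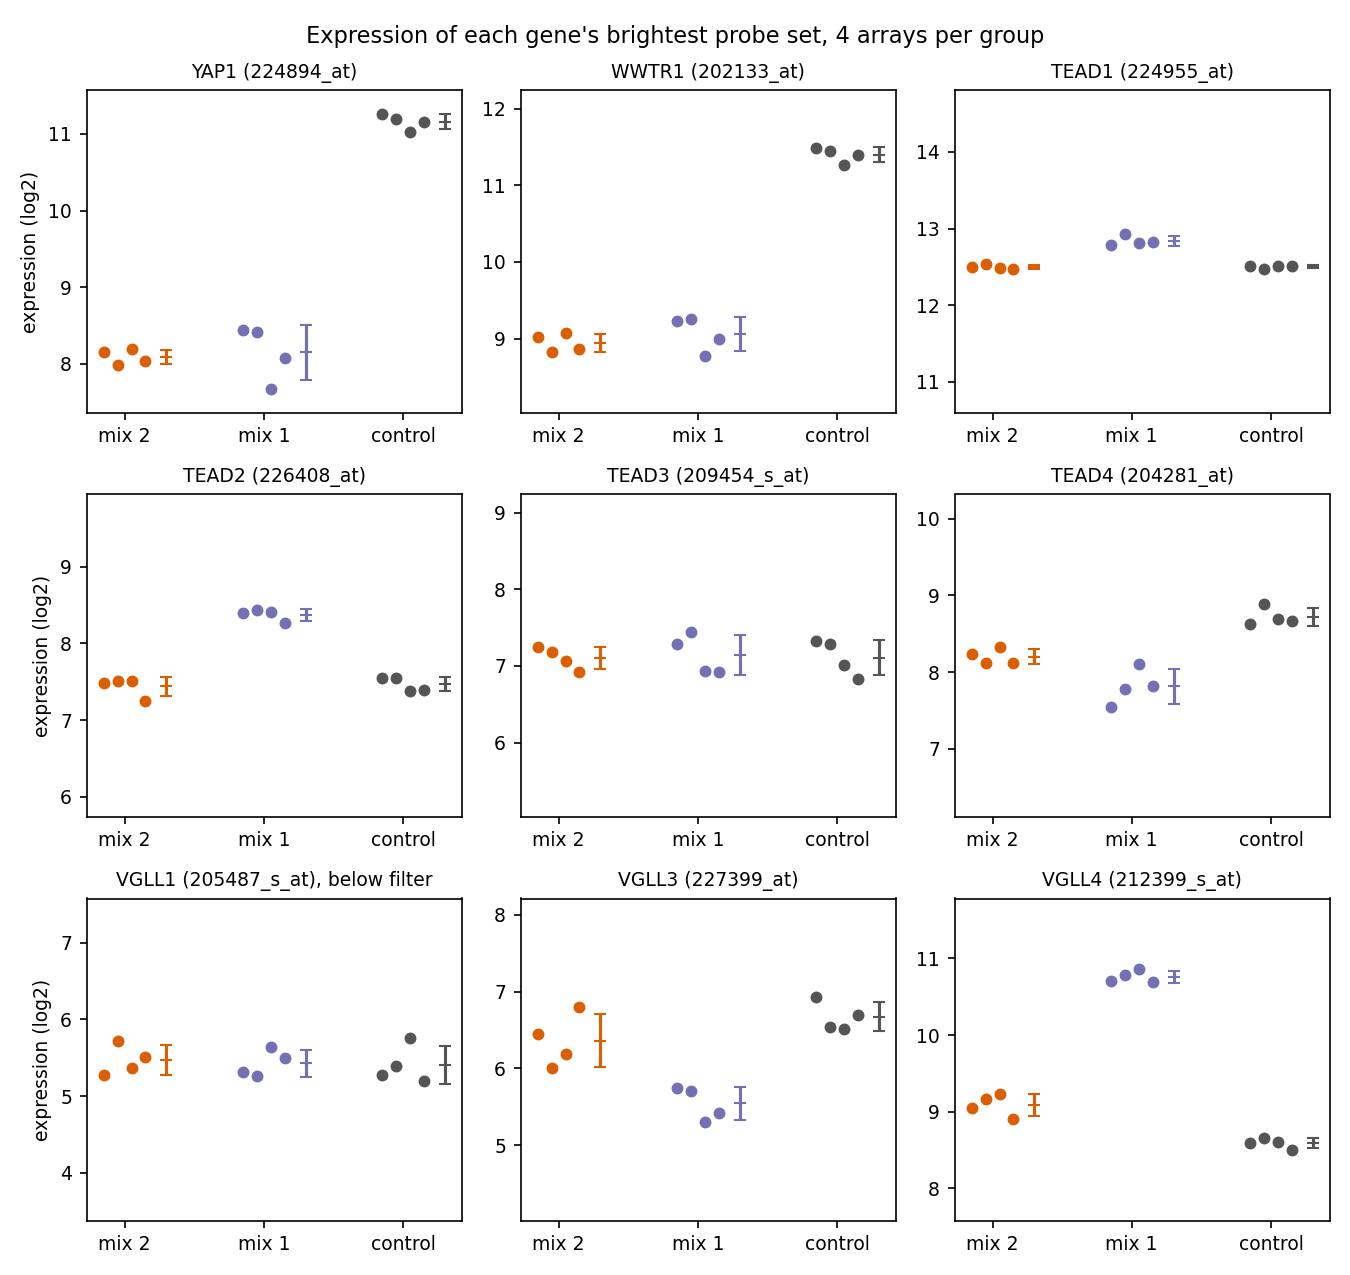
Expression of the brightest probe set of each of the 9 genes (y axis, log2; every panel spans the same number of log2 units) in mix 2, mix 1 and control. Points are the 4 arrays of a group in the order A to D and bars the mean ± SD; YAP1 and WWTR1 sit at like levels in both mixes, while VGLL4 averages 9.09 with mix 2, 10.76 with mix 1 and 8.59 in control.

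Outside the targeted pair, TEAD4 fell and VGLL4 rose under both mixes, each more with mix 1, whereas VGLL3 fell and a probe set each of TEAD1 and TEAD2 rose past the threshold with mix 1. TEAD3 passed in no comparison. Counting the targeted genes, 10 of the 18 tested probe sets passed the threshold against control with mix 2, where 66.2% of all 24650 tested probe sets passed, and 13 of 18 with mix 1, where 65.0% passed. Of the 12 tested probe sets of the genes that were not targeted, 4 passed with mix 2 (2 higher, 2 lower) and 7 with mix 1 (4 higher, 3 lower). Between the mixes 11 of 18 passed, against 51.3% of all. With mix 2, 2 of the 18 were higher (34.0% of all) and 8 lower (32.2%); with mix 1, 4 were higher (33.2%) and 9 lower (31.7%); between the mixes, 4 were higher with mix 2 (25.8%) and 7 lower (25.6%). A called difference of at least 2-fold was found for 6 with mix 2 (16.9% of all), for 10 with mix 1 (15.3%) and for 2 between the mixes (6.37%). The 6 probe sets of the targeted genes are among those that fell at least 2-fold under each mix. The shares called in either direction lie near those of all probe sets and are no result about the family. Both mixes were set against the same 4 control arrays.

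The 18 tested probe sets had a median log2 difference of -0.19 with mix 2 and -0.44 with mix 1, against 0.01 and 0.00 over all tested probe sets; 6 of the 18 belong to the targeted genes. Arrays of the groups did not overlap for 9 of 18 probe sets with mix 2 (62.2% of all tested probe sets) and for 13 of 18 with mix 1 (60.3% of all). Between the mixes they did not overlap for 7 of 18 (44.1% of all).

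**Figure D2:**
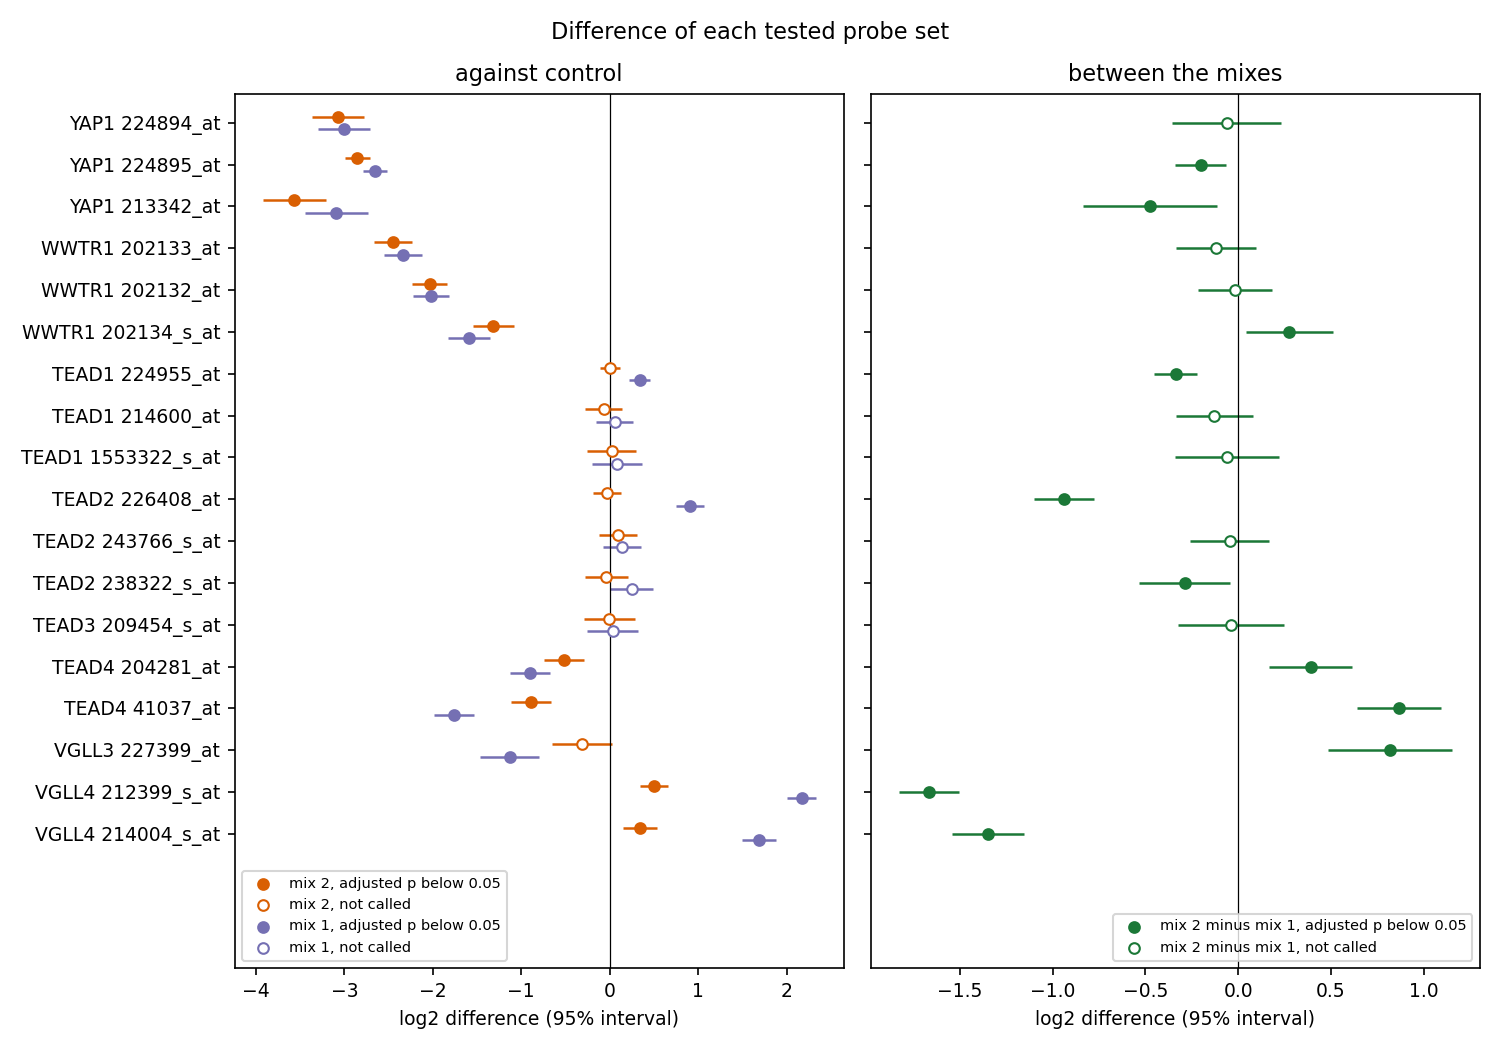
Log2 difference (x axis) with its 95% interval for the 18 tested probe sets, mix 2 and mix 1 against control on the left and mix 2 minus mix 1 on the right; filled points have a limma adjusted p below 0.05. VGLL4 and TEAD4 stand on opposite sides of 0 under both mixes, with the mix 1 points farther out.

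TEAD4 was the TEAD factor gene that fell. Its probe set 204281_at had 8.24, 8.12, 8.33 and 8.12 log2 with mix 2, 7.54, 7.78, 8.11 and 7.82 with mix 1, and 8.63, 8.89, 8.69 and 8.66 in control. The 3 groups did not overlap, with mix 1 lowest and control highest. The difference from control was -0.52 with mix 2 (SE 0.10, limma adjusted p = 0.000499), a 1.43-fold lower level, and -0.91 with mix 1 (adjusted p = 2.35e-06), which left 53.4%. The second probe set, 41037_at, had 7.54, 7.45, 7.60 and 7.27 with mix 2, 6.79, 6.52, 6.73 and 6.35 with mix 1, and 8.37, 8.53, 8.33 and 8.19 in control. It gave the same order with wider steps, at -0.89 (SE 0.11, adjusted p = 2.91e-06) with mix 2 and -1.76 (adjusted p = 2.05e-09) with mix 1. Between the mixes both TEAD4 probe sets were higher with mix 2, by 0.39 (adjusted p = 0.00593) and 0.87 (adjusted p = 7.7e-06). The fall of 41037_at exceeded that of 204281_at by 0.38 log2 with mix 2 and 0.85 with mix 1 (exact two-sided permutation p = 0.0286 each, adjusted p = 0.0572).

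TEAD2 rose with mix 1 by its brightest probe set. This probe set, 226408_at, had 7.48, 7.51, 7.51 and 7.25 log2 with mix 2, 8.40, 8.43, 8.41 and 8.26 with mix 1, and 7.55, 7.55, 7.38 and 7.39 in control. All mix 1 arrays stood above all others, while those of mix 2 overlapped the controls. It rose by 0.91 with mix 1 (SE 0.08, limma adjusted p = 7.02e-08), a 1.88-fold higher signal, and its difference with mix 2 was -0.03 (95% interval -0.19 to 0.13, adjusted p = 0.749). The difference between the mixes was -0.94 (adjusted p = 1.18e-07). The other tested TEAD2 probe sets did not pass against control. With mix 1 their differences minus that of 226408_at were -0.77 for 243766_s_at and -0.66 for 238322_s_at (exact two-sided permutation p = 0.0286 each, adjusted p = 0.0572). Their differences were 0.09 with mix 2 and 0.14 with mix 1 for 243766_s_at (limma adjusted p = 0.438 and 0.244), and -0.04 and 0.25 for 238322_s_at (adjusted p = 0.793 and 0.0679). Probe set 238322_s_at averaged 5.76 log2 with mix 2, 6.045 with mix 1 and 5.795 in control, below ESR1 in each group. Its lack of a call and its comparison with 226408_at are therefore uncertain. Without control replicate B or mix 1 replicate B, 238322_s_at passed with mix 1 (0.32 each, adjusted p = 0.03 and 0.0264). Its difference between the mixes was -0.29 (adjusted p = 0.0477), a call lost without any of 7 single arrays (adjusted p up to 0.151). It was also lost without the filter (0.0732), with arrays centred on their medians (0.0501), with the replicate block (0.0639), with only both mixes in the fit (0.0552) and with trended, robust eBayes (0.0529). The fourth probe set, 238323_at, averaged 4.30 ± 0.12 with mix 2, 4.79 ± 0.29 with mix 1 and 4.42 ± 0.19 in control (SD, n = 4 each), below the filter value. In a fit without the filter it was 0.38 higher with mix 1 (adjusted p = 0.0294), where the groups overlapped.

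TEAD1 rose slightly with mix 1 by its brightest probe set. This probe set, 224955_at, had 12.50, 12.54, 12.49 and 12.47 log2 with mix 2, 12.78, 12.93, 12.81 and 12.83 with mix 1, and 12.51, 12.47, 12.51 and 12.51 in control. The mix 1 arrays were all above the others, by a margin that was small in fold terms but large beside the spread in control (SD 0.02). It was 0.34 higher with mix 1 than in control (SE 0.05, limma adjusted p = 6.12e-05), or 1.26-fold, and 0.00 different with mix 2 (95% interval -0.12 to 0.12, adjusted p = 1). The difference between the mixes was -0.34 (adjusted p = 0.000103). Probe sets 214600_at and 1553322_s_at did not pass in any comparison, with differences from control of -0.07 and 0.02 with mix 2 and of 0.06 and 0.08 with mix 1. With mix 1 their differences minus that of 224955_at were -0.28 and -0.26 (exact two-sided permutation p = 0.0286 and 0.286, adjusted p = 0.0572 and 0.381), so a difference among the TEAD1 probe sets was not shown. Without mix 1 replicate B, 214600_at passed between the mixes (-0.23, adjusted p = 0.029).

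TEAD3 had 1 probe set, 209454_s_at, and no difference that passed. Its values were 7.25, 7.18, 7.07 and 6.92 log2 with mix 2, 7.28, 7.44, 6.93 and 6.92 with mix 1, and 7.32, 7.28, 7.01 and 6.83 in control. In each group replicates A and B lay above C and D, a split that does not follow the treatment. The difference from control was -0.01 with mix 2 (95% interval -0.29 to 0.28, limma adjusted p = 0.978) and 0.03 with mix 1 (-0.25 to 0.32, adjusted p = 0.85). With the replicate letter as a block the SE was 0.07, against 0.13 without it, and the adjusted p was 0.955 with mix 2 and 0.696 with mix 1.

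**Figure D3:**
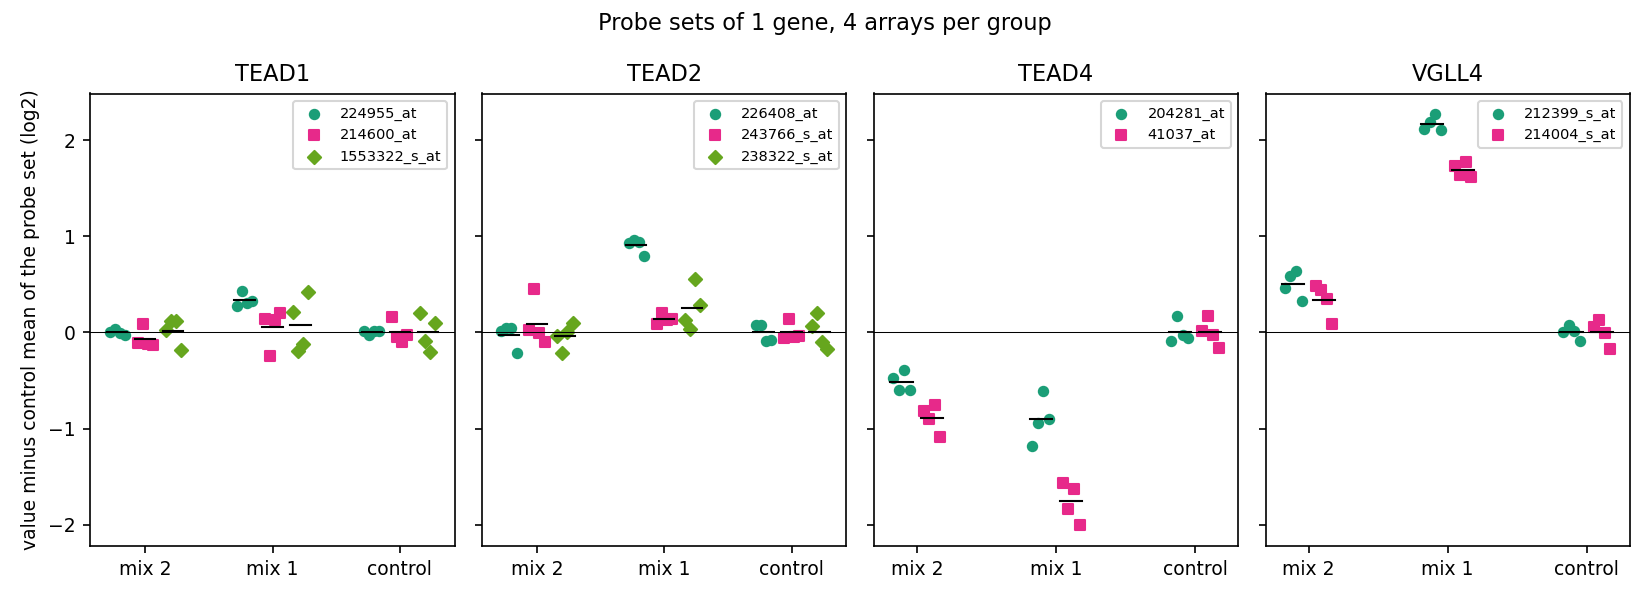
Values of each tested probe set of TEAD1, TEAD2, TEAD4 and VGLL4 minus that probe set's control mean (y axis, log2) in mix 2, mix 1 and control; points are the 4 arrays A to D and the short lines group means. Only 1 of the 3 TEAD2 probe sets shown (226408_at, 0.91 with mix 1) stands clear of its controls, whereas both probe sets of TEAD4 fall and both of VGLL4 rise.

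VGLL4 rose under both mixes and far more with mix 1. Probe set 212399_s_at had 9.05, 9.17, 9.23 and 8.91 log2 with mix 2, 10.70, 10.78, 10.86 and 10.69 with mix 1, and 8.59, 8.66, 8.60 and 8.5 in control. The groups stood in 3 separate levels, control lowest and mix 1 highest. The rise over control was 0.50 with mix 2 (SE 0.08, limma adjusted p = 3.1e-05), or 1.42-fold, and 2.17 with mix 1 (adjusted p = 8.64e-12), or 4.50-fold. Probe set 214004_s_at had 8.25, 8.21, 8.12 and 7.86 with mix 2, 9.50, 9.41, 9.54 and 9.38 with mix 1, and 7.82, 7.90, 7.76 and 7.59 in control. It rose by 0.34 with mix 2 (SE 0.09, adjusted p = 0.00375), where replicate D reached into the control range, and by 1.69 with mix 1 (adjusted p = 5.93e-10). Between the mixes the differences were -1.67 (adjusted p = 3.47e-10) and -1.35 (adjusted p = 1.82e-08). Both probe sets have names ending in _s_at, a class that can read more than 1 transcript, and were not tested for this.

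VGLL3 fell with mix 1. Its brighter probe set, 227399_at, had 6.45, 6.0, 6.19 and 6.80 log2 with mix 2, 5.74, 5.71, 5.30 and 5.42 with mix 1, and 6.93, 6.54, 6.52 and 6.70 in control. Mix 1 lay below both other groups, and mix 2 replicate D lay inside the control range. The difference from control was -1.13 with mix 1 (SE 0.16, limma adjusted p = 1.52e-05), which left 45.7% of the level. Its mean with mix 1, 5.54 log2, was below that of ESR1 (6.26), so the share left is uncertain. The second VGLL3 probe set, 220327_at, was below the filter value with group means of 3.65 to 3.86 log2. In a fit without the filter its difference with mix 1 was -0.21 (adjusted p = 0.0428) and overlapping groups. With mix 2 the difference of 227399_at was -0.31 (adjusted p = 0.0935). Without mix 2 replicate D it was -0.46 and passed (adjusted p = 0.0107). The difference between the mixes was 0.82 (adjusted p = 0.000484).

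The 3 probe sets of VGLL1 lay below the filter value in their means over all arrays. The highest, 205487_s_at, averaged 5.47 ± 0.19 log2 with mix 2, 5.43 ± 0.18 with mix 1 and 5.41 ± 0.24 in control (SD, n = 4 each). The groups overlapped in full. The others had group means of 2.75 to 4.15 log2. In a fit without the filter no VGLL1 probe set passed in any comparison (adjusted p = 0.43 or above), and at these levels a change may not be measurable.

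Among 21 measured genes of a pan-cancer YAP/TAZ target list, which read out the activity of the YAP/TAZ-TEAD complex, 12 fell and 6 rose with mix 2, and 16 fell and 3 rose with mix 1. Over all 13225 genes, each by its brightest probe set, 31.9% fell and 36.7% rose with mix 2, and 32.3% fell and 34.8% rose with mix 1. The median of the target list was -0.56 log2 with mix 2 and -0.77 with mix 1, beside 0.03 and 0.01 over all genes. Directly between the mixes, 16 of the 21 targets were higher with mix 2 and 4 lower, where 28.7% and 25.0% of all genes were. The muscle ankyrin repeat gene ANKRD1 and the matricellular genes CCN1 and CCN2, all standard readouts, were 2.51 (SE 0.09), 2.16 (SE 0.07) and 1.76 (SE 0.09) log2 higher with mix 2 than with mix 1 (limma adjusted p = 3.14e-11, 6.86e-12 and 6.81e-10). The brightest probe sets of YAP1 and WWTR1 themselves gave -0.06 and -0.12, neither past the threshold. Of the targets, RBMS3, an RNA-binding protein gene (0.96 with mix 2 and 0.31 with mix 1), and DOCK5, a guanine nucleotide exchange factor gene (0.89 and 0.24), rose under both mixes (adjusted p = 1.49e-08 or below with mix 2 and 0.00334 or below with mix 1), although with mix 1 only 1 of the 4 other probe sets of RBMS3 and 0 of the 4 of DOCK5 passed. The differences from control with mix 2 and mix 1 were -2.93 and -5.44 for ANKRD1, -2.28 and -4.04 for CCN2 and -1.55 and -3.71 for CCN1.

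Of 29 upstream Hippo pathway genes, 26 were measured; 8 rose and 14 fell with mix 2 (median -0.41), and 5 rose and 13 fell with mix 1 (median -0.17). Of all genes 36.7% rose and 31.9% fell with mix 2 (median 0.03), and 34.8% rose and 32.3% fell with mix 1 (median 0.01). The kinase gene MAP4K4, which can activate LATS kinases, rose by 1.28 with mix 2 and 1.62 with mix 1 (limma adjusted p = 2.1e-10 and 2.17e-11). The casein kinase gene CSNK1D, whose product takes part in marking YAP for degradation, rose by 0.86 and 0.68 (adjusted p = 1.33e-08 and 1.93e-07), but its other probe set did not pass with mix 2 (0.09, adjusted p = 0.339). Of the 4 other MAP4K4 probe sets, 1 did not pass with mix 2 (0.18, adjusted p = 0.181), and of the 4 of WWC1, 1 did not pass with mix 1 (-0.20, adjusted p = 0.144). The scaffold gene SAV1 rose by 0.81 and 0.37 (adjusted p = 4.53e-06 and 0.00498), but 2 of its 4 other probe sets fell with mix 1 (-1.55 and -1.51), so its direction there is not settled. AMOTL2 (-1.63 and -2.25), an angiomotin that holds YAP in the cytoplasm, WWC1 (-1.61 and -1.41), which encodes the LATS activator KIBRA, and RASSF1 (-1.57 and -1.05), which encodes a scaffold that binds the MST kinases, fell (adjusted p = 1.98e-09 or below with mix 2 and 1.93e-07 or below with mix 1). This list shares AMOTL2, LATS2 and PTPN14 with the target list.

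Of 30 other partners of YAP, TAZ or TEAD factors, 24 were measured; 10 rose and 7 fell with mix 2 (median -0.01), and 11 rose and 2 fell with mix 1 (median 0.02). Of all genes 36.7% rose and 31.9% fell with mix 2, near the shares of the partners, and 34.8% rose and 32.3% fell with mix 1. The receptor gene ERBB4, whose cleaved intracellular part can bind YAP, averaged 7.35 log2 with mix 2, 5.81 with mix 1 and 3.74 in control. Its control level was below the filter value, which the gene passed only through the knockdown groups, so no fold or p is given for it. ERBB4 is nonetheless included in the counts above, among the partners that rose under both mixes. The Wnt pathway factor gene TCF7L2 rose by 0.74 and 1.60 (adjusted p = 2.75e-08 and 8.75e-12) and the nuclear receptor coactivator gene NCOA2 by 1.28 and 0.92 (adjusted p = 9.34e-08 and 3.56e-06). FOSL1, an AP-1 subunit found with TEAD factors at enhancers, was the only one of the 24 that fell under both mixes, with differences of -3.03 and -1.46 (adjusted p = 1.73e-12 and 4.84e-09).

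**Figure D4:**
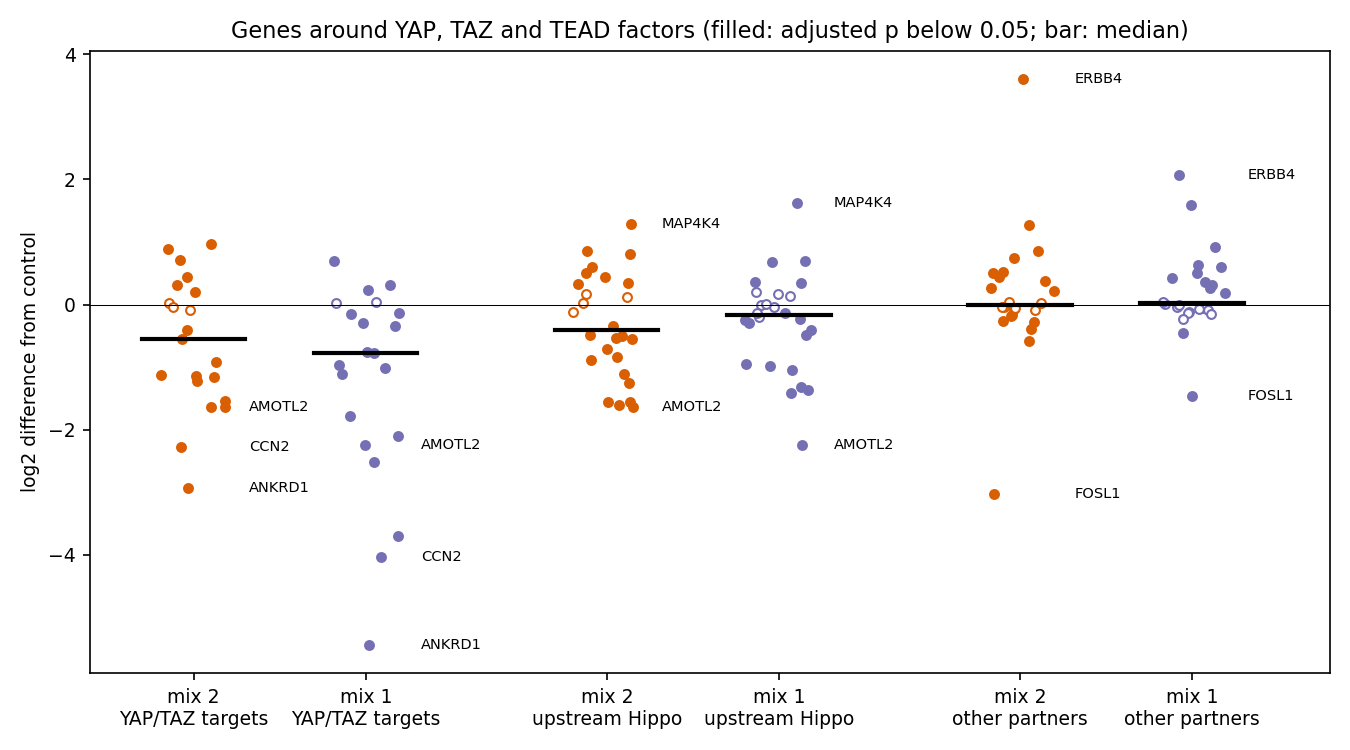
Log2 difference from control (y axis) of each measured gene of 3 lists with mix 2 and mix 1: 21 YAP/TAZ targets, 26 upstream Hippo genes and 24 other partners. Filled points have a limma adjusted p below 0.05 and bars are medians, at -0.56 and -0.77 for the targets. The filled points of the partners include ERBB4, whose control level was below the filter value.

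Genes that followed YAP1 and WWTR1 most closely over the 12 arrays were sought by the root mean square difference of profiles centred on the control mean. For YAP1 these were ZNF367, a zinc finger protein gene (0.20 log2), the replication checkpoint gene CLSPN (0.24) and the metalloprotease gene ADAMTS6 (0.25). For WWTR1 they were RFC3 (0.08), which encodes a clamp loader subunit, MCM8 (0.11), a helicase gene, and the cell cycle kinase gene CDK1 (0.14). The differences of CDK1 from control, for example, were -2.58 with mix 2 and -2.33 with mix 1, beside -2.45 and -2.34 for WWTR1. TEAD and VGLL genes were not matched this way, since none changed at least 2-fold in 1 direction under both mixes by its brightest probe set.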

How the data were processed

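RNA of 12 cultures was hybridised to Affymetrix arrays after labelling as biotinylated cRNA, per the labels' protocols. The authors deposited log2 expression values, 1 column per array. Per the submitters' processing notes the method was RMA, whose software and settings the sources used here do not give. RMA in its usual form equalises the arrays, so a shift of all genes 1 way would not be visible. Arrays have no read depth; their number limits the precision.

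Probe sets with exactly 1 gene symbol in GEO's platform annotation were used (41091, naming 19775 genes), without control probe sets. For 41037 of them the gene ID was found in the RefSeq gene table of GRCh38.p14, and the symbol given there was used, changed or not. Of the probe sets not used, 1801 had several symbols and 11777 none here. Of the 41091, those with a mean above the 40th percentile (5.46 log2) were tested: 24650 probe sets, or 13225 genes by the brightest probe set, which served the lists. limma (version 3.58.1, R 4.3.3) was fitted with 3 group means on all 12 arrays (9 residual degrees of freedom), with default eBayes, two-sided p-values adjusted by Benjamini-Hochberg over all features of a comparison and a threshold of 0.05. The fit was tested on simulated data of independent arrays with a shift in mix 1 only. That setting is unlike these data, so it does not check the calls made here. Probe sets of 1 gene were compared by exact permutation over arrays. The smallest p this test can give, 0.0286, became 0.0572 after adjustment over 20 tests, and no comparison passed. A pass would have needed more tests at that smallest p. Intervals are 95%. The labels call the arrays biological replicates.

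The members, lists and tests were chosen with earlier results of these data known. Named were all members, the 3 genes nearest to a member that changed at least 2-fold under both mixes, and per list up to 3 genes per direction called under both mixes, ranked by the mean of both differences, with CCN1, CCN2 and ANKRD1. Same-letter replicates of mix 1 and control deviated together (correlations 0.382, 0.352, 0.427 and 0.429 for A to D), which comes from the values. Mix 1 replicate B, however, correlated more with a control of another letter. In control and mix 1 the 3′ minus 5′ ACTB difference was higher in A and B (control 1.99 and 1.88, mix 1 2.04 and 2.24) than in C and D (control 1.53 and 1.38, mix 1 1.78 and 1.61). Mix 2 did not show this split, with 1.57, 1.36, 1.36 and 1.83 for A to D. Whether the replicates were paired by letter or shared a split of the arrays was not tested. Same-letter replicates of mix 2 and control did not deviate together (0.00 to 0.101). For those of mix 2 and mix 1 the correlations were 0.214, -0.0928, 0.177 and 0.0871 for A to D. In A and C the own letter was the best match. A fit with the replicate block kept the count of called probe sets with mix 1 at 13. Alternatives were the filter, array centring, 1 probe set per gene, the block, 2 groups per fit, another eBayes and each array left out.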

Additional observations from a re-analysis of the deposited data

Results flagged for a closer look

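In 69 groups of 4 arrays (23 probe sets in 3 groups), 6 had a highest or lowest array far from the other 3 by Dixon's test at 95%; chance flags about 1 in 20 groups. With mix 2 these were replicate B of YAP1 224895_at (7.43 log2, the others 7.26 to 7.28), replicate B of TEAD1 214600_at (8.79, the others 8.57 to 8.60) and replicate D of TEAD2 226408_at (7.25, the others 7.48 to 7.51). In control they were replicate B of TEAD1 224955_at (12.47, the others all 12.51), replicate B of TEAD2 243766_s_at (7.22, the others 7.02 to 7.05) and replicate C of VGLL1 215730_at (4.15, the others 4.04 to 4.05), which lies near background. For YAP1 224895_at the gap was small beside its differences from control, but not beside its difference between the mixes (-0.20). No call against control rested on any of these arrays.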

How the results depend on the processing

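The calls of both TEAD4 and both VGLL4 probe sets, and of all 6 of YAP1 and WWTR1, against control under each mix held in every alternative that tested them, as did those of TEAD1 224955_at, TEAD2 226408_at and VGLL3 227399_at with mix 1. With 1 probe set per gene, 4 of 8 members passed with mix 2, 7 of 8 with mix 1 and 5 of 8 between the mixes, fewer because fewer were tested; with a filter at the 60th percentile 7 of 13 passed between the mixes. The replicate block left 10 calls with mix 2, 13 with mix 1 and 10 between the mixes, where TEAD2 238322_s_at was lost (limma adjusted p = 0.0639). Whether mix 2 replicates were paired with the others by letter was not tested. Over 981 recomputed differences of member probe sets, 920 kept direction and side of the threshold, 30 lost and 4 gained it, and 27 changed sign, all of them not called in the alternative and all when an array was left out. Leaving out each array in turn, TEAD3 ranged from -0.0983 to 0.065 with mix 2 and -0.0667 to 0.107 with mix 1 against control, and from -0.112 to 0.0617 between the mixes. TEAD1 1553322_s_at ranged from -0.0475 to 0.0875, -0.0325 to 0.171 and -0.151 to 0.0525 in the same order. With mix 2 against control the ranges were -0.0592 to 0.0325 for TEAD2 226408_at, -0.0958 to 0.0308 for 238322_s_at and -0.0258 to 0.158 for 243766_s_at. Between the mixes they were -0.163 to 0.02 for TEAD2 243766_s_at, -0.223 to 0.0333 for YAP1 224894_at and -0.122 to 0.0417 for WWTR1 202132_at. The alternatives for the lists were chosen after seeing the data; with 2 groups per fit, 4 partners in place of 2 fell with mix 1, and the cause was not tested.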
